A study of Mus musculus with 4 samples.

Results

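Ano1 encodes a chloride channel that opens when calcium rises in the cell, and Itpr1, Itpr2, Itpr3, Ryr2 and Ryr3 encode the channels that let calcium out of the cell's internal store. These 6 genes were taken by name from the gene symbols of the deposited feature lists, which hold 32286 genes, and each of the 6 had UMIs in all 3 libraries. They were measured by single-cell RNA sequencing of mouse popliteal vessels, in which each captured RNA molecule carries a unique molecular identifier (UMI) and is read near its 3′ end. All animals were adult mice carrying WT1GFPCre, in which EGFP and Cre replace part of the Wt1 gene, together with the Ai9-tdT reporter, and received Evans blue dye in the footpad. PLV replicates 1 and 2 (PLV 1 and PLV 2 from here on) are popliteal lymphatic vessels, each from a separate pool of 2 mice, digested for 30 min at 37 °C with collagenase I, Dispase II, DNase and Liberase. The mixed library holds popliteal lymphatic vessel cells and cells labelled BV (blood vessel) from 1 pool of 2 mice, digested for 60 min with collagenase I and Dispase II alone. Vessel, digestion, mice and the version of the counting software (Cell Ranger) differ together between the PLV and the mixed libraries and cannot be told apart. No group lacks the Cre or the reporter.

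Cells were clustered and named by marker genes, without the 6 genes or the genes of their pathways. The libraries kept 1909 cells with 9577642 UMIs (PLV 1), 516 cells with 3390010 UMIs (PLV 2) and 994 cells with 7770796 UMIs (mixed), with median depths of 3372, 4886.5 and 6162 UMIs per cell. No barcode was shared between libraries. In the mixed library the hashtag CMO1 made up a median of 79.7% of tag UMIs in cells and 79.8% in near-empty droplets, and the tags were not used to assign cells to a vessel. The muscle-like class held 396, 113 and 336 cells, and its 10 muscle markers summed to 32152, 31821.5 and 37655 CPM, the count in a total scaled to 1000000 UMIs. The pericyte-like class was small, at 47, 23 and 40 cells, and carried muscle markers too, at 6779 to 7890 CPM. Fibroblast-like, lymphatic endothelial-like, blood endothelial-like and Schwann-like classes completed the 6 classes compared. In sums of this kind, fewer cells with a transcript and less transcript per cell cannot be told apart.

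In smooth muscle, hormones and stretch activate phospholipase C, which makes inositol trisphosphate (IP3); IP3 opens IP3 receptors (Itpr1, Itpr2 and Itpr3) on the endoplasmic or sarcoplasmic reticulum. Ryanodine receptors (Ryr2, the cardiac type, and Ryr3) open on calcium itself. Calcium released near the membrane opens Ano1 (TMEM16A), and the outward movement of chloride depolarises the cell. In collecting lymphatic vessels this coupling is known for its part in the spontaneous contractions that pump lymph.

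On GRCm38 with GENCODE M21, Ano1 (ENSMUSG00000031075) lies at chr7:144588549-144751974 on the minus strand. Itpr1 (ENSMUSG00000030102) lies at chr6:108213096-108551109 on the plus strand, and Itpr2 (ENSMUSG00000030287) at chr6:146108299-146502223 on the minus strand. Itpr3 (ENSMUSG00000042644) lies at chr17:27057304-27122223 on the plus strand. Ryr2 (ENSMUSG00000021313) lies at chr13:11553102-12106945 and Ryr3 (ENSMUSG00000057378) at chr2:112631355-113217096, both on the minus strand. All 6 are protein-coding and none overlaps another counted gene on its own strand. Itpr1, Itpr3 and Ryr3 share exon bases with the antisense genes Gm44040, Itpr3os and Aven, and whether counting used strand is not given in the sources used here.

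RefSeq promoters (GRCm38.p6, the 250 bases before the gene's start) matched 4 of the 6 genes, namely Ano1, Itpr2, Itpr3 and Ryr2. Those of Ano1 and Ryr2 are shown because these genes differed in opposite directions between the muscle kinds described below. The Ano1 window is chr7:144738574-144738823 and the Ryr2 window is chr13:12106946-12107195, both on the minus strand, and the RefSeq start of Ano1 lies inside the GENCODE gene. Capitals mark the GC box GGGCGG.
Ano1: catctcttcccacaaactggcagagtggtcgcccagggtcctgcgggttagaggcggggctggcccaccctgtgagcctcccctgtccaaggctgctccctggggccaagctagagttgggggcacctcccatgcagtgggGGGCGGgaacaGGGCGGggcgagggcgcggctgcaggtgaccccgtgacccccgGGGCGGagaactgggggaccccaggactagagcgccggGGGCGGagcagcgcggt
Ryr2: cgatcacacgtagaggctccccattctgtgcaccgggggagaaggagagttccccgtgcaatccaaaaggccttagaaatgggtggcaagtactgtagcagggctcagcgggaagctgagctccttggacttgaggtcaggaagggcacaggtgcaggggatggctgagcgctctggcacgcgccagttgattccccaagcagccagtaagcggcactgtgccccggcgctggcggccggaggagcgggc
The GC box GGGCGG, searched on both strands, occurred 4 times in the Ano1 window, 4 times in Itpr2, once in Itpr3 and not in Ryr2, and 32.7% of 32851 RefSeq promoter windows of this length held it. The CArG box, TATAAA and CATTCC, also searched on both strands, were found in none of the 4 windows, and 1.47%, 12.4% and 12.6% of all windows held them. GC content was 72% for Ano1 and 63.2% for Ryr2. A match of letters is a description of the window and not a binding site.

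Ano1 was highest in pericyte-like cells, next in muscle-like cells, and lower in blood endothelial-like cells. In pericyte-like cells its level was 427 CPM in PLV 1, 654 CPM in PLV 2 and 295 CPM in the mixed library, from 81, 71 and 74 UMIs. In muscle-like cells it was 165, 221 and 183 CPM, in the same order, from 343, 176 and 473 UMIs. In blood endothelial-like cells it was 48.6, 47.5 and 54.6 CPM. These 3 classes did not overlap across libraries. Fibroblast-like cells (2.06, 4.43 and 12.4 CPM), lymphatic endothelial-like cells (10.5, 0 and 0 CPM) and Schwann-like cells (2.11, 0 and 0 CPM) overlapped one another. The lymphatic endothelial-like UMIs all came from PLV 1, where that class also held the most muscle marker RNA, at 1225 CPM against 247 and 145 CPM in the other libraries; its part in the Ano1 level was not tested.

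Ano1 in blood endothelial-like cells varied between clusters together with pericyte markers. In PLV 1 the cluster led by Sema3g, Gja5 and Cytl1 had 83.2 CPM of Ano1 with 2454 CPM summed over 9 pericyte markers, and the cluster led by Selp and Aqp1 had 15 CPM with 903 CPM. In the mixed library the cluster led by Rbp7 and Gpihbp1 had 88.6 CPM with 1886 CPM of pericyte markers, and the cluster led by Cytl1 and Vwf had 0 CPM with 12.4 CPM. The clusters with more pericyte marker RNA had more Ano1 in each of these libraries, and the part of pericyte RNA in the endothelial level was not tested. Macrophage-like clusters of PLV 1 and the mixed library held no Ano1 UMI, and an immune cluster of 37 cells in the mixed library, led by Ccl4, Ccl3 and Il7r, held 12 (193 CPM), with muscle markers at 17870 CPM in the same cells. A keratinocyte-like cluster of 122 cells in PLV 1 had 181 CPM of Ano1, with muscle markers at 14778 CPM and pericyte markers at 3716 CPM in the same cells.

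Itpr1, the IP3 receptor of smooth muscle and neurons, had its highest level in muscle-like cells, at 384, 422 and 224 CPM in PLV 1, PLV 2 and the mixed library. Blood endothelial-like cells followed at 172, 165 and 162 CPM and lymphatic endothelial-like cells at 121, 148 and 104 CPM. Pericyte-like cells had 63.3, 73.7 and 75.8 CPM. These 4 classes did not overlap, so pericyte-like cells, highest for Ano1, lay below both endothelial classes for Itpr1. The order holds for whole classes, since in the mixed library the blood endothelial-like cluster led by Cytl1 and Vwf had 290.2 CPM (95% Poisson interval 226 to 367), above the muscle-like class there. Fibroblast-like cells (14.4, 39.8 and 43.8 CPM) and Schwann-like cells (6.34, 19.2 and 16.4 CPM) were lowest and overlapped.

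Itpr2, an IP3 receptor known from liver and heart muscle, was highest in blood endothelial-like cells, at 88.1, 142 and 104 CPM, then in lymphatic endothelial-like cells at 55.6, 70.8 and 88.1 CPM and fibroblast-like cells at 44.3, 73.0 and 45.6 CPM. The lymphatic endothelial-like and fibroblast-like ranges overlapped. The endothelial level was uneven in PLV 1, where the cluster led by Cd36 and Gpihbp1 had 147 CPM and the other blood endothelial-like clusters 49.1 and 26.9 CPM, below the lymphatic endothelial-like class. Muscle-like cells had 4.34, 3.77 and 5.80 CPM, from 9, 3 and 15 UMIs, and pericyte-like cells had 21.1, 0 and 19.9 CPM. Schwann-like cells held no Itpr2 UMI in any library, which allows up to 3.99 CPM over their summed UMIs (3 UMIs of the total; counting error only).

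Itpr3, an IP3 receptor known from secretory and sensory epithelia, was highest in the Schwann-like class, at 222, 218 and 197 CPM. Blood endothelial-like cells had 68.7, 66.5 and 45.1 CPM, without overlap with the Schwann-like values. Lymphatic endothelial-like cells had 24.9, 24.7 and 14.5 CPM, and fibroblast-like cells 29.9, 22.1 and 2.76 CPM. Muscle-like cells held 1 Itpr3 UMI in all, in PLV 2, so the receptor was near its detection limit in muscle.

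**Figure D1:**
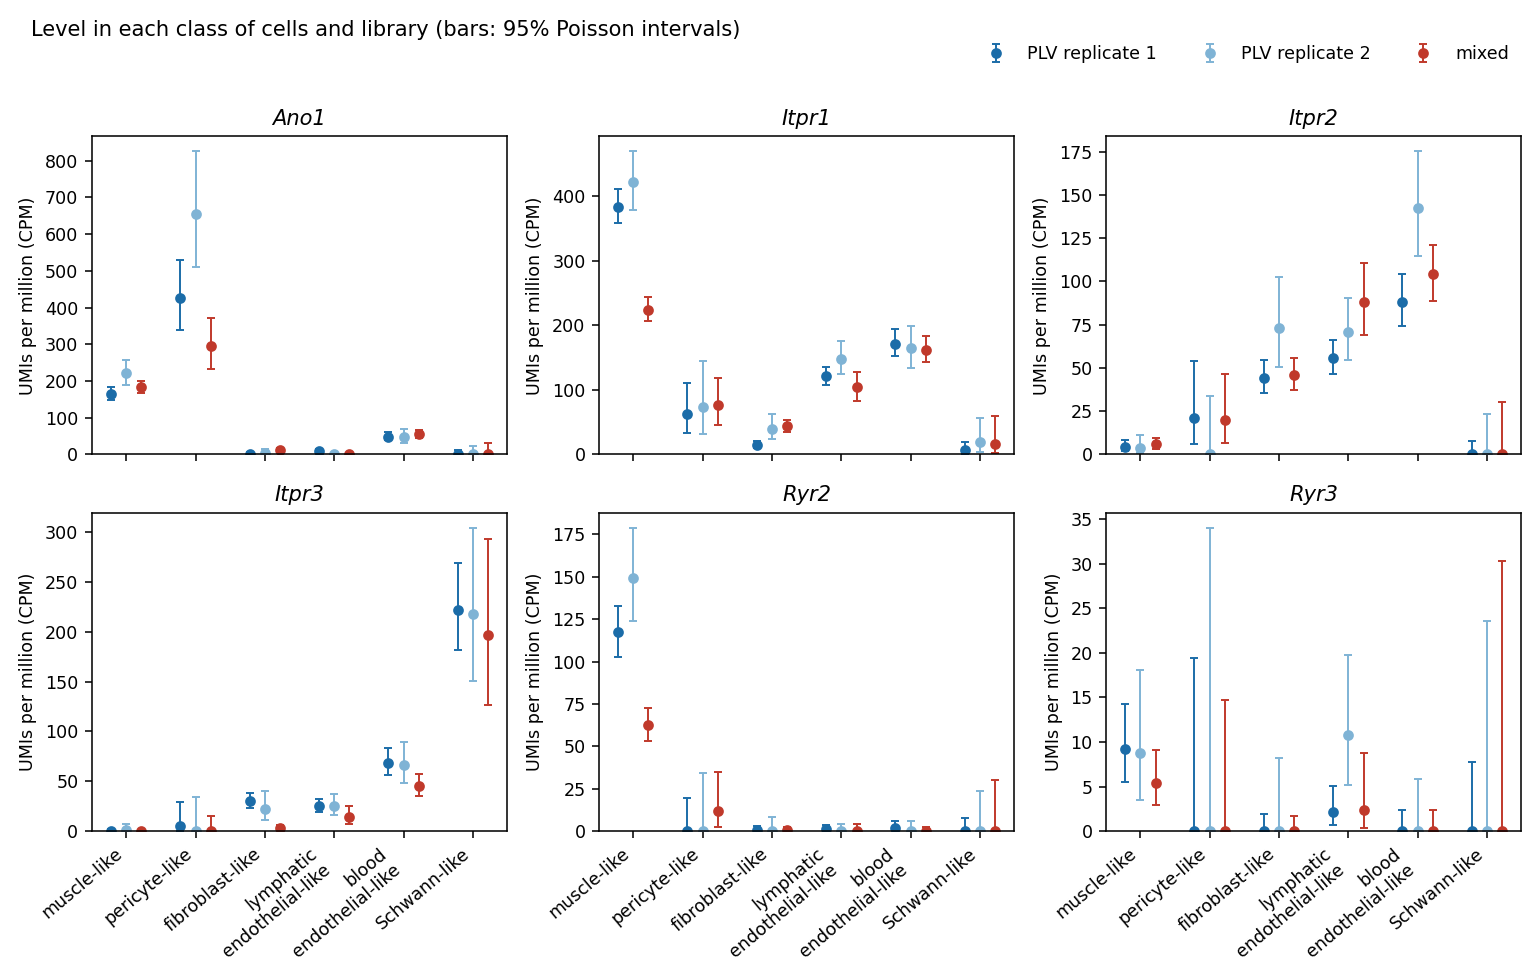
Level of each gene (CPM, linear axis from 0) in the 6 classes of cells; each point is 1 library and each bar its 95% Poisson interval, which covers counting error only. Pericyte-like cells stand highest for Ano1 (295 to 654 CPM), muscle-like cells for Itpr1 (224 to 422 CPM) and Ryr2, blood endothelial-like cells for Itpr2 (88.1 to 142 CPM) and Schwann-like cells for Itpr3 (197 to 222 CPM).

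The classes thus differed in which IP3 receptor gave the UMIs. In muscle-like cells Itpr1 made up 98.9%, 98.8% and 97.5% of the UMIs of the 3 IP3 receptor genes (PLV 1, PLV 2, mixed; Clopper-Pearson 95% interval 97.9 to 99.5% in PLV 1). In Schwann-like cells Itpr3 made up 97.2%, 91.9% and 92.3% of theirs, from 105, 34 and 24 Itpr3 UMIs. Endothelial cells held all 3 receptors. In blood endothelial-like cells the Itpr1 share was 52.3%, 44.1% and 52.1% and the Itpr3 share 20.9%, 17.8% and 14.5%. In lymphatic endothelial-like cells the Itpr1 share was 60.0%, 60.8% and 50.3%. Fibroblast-like cells had Itpr2 as the largest share, at 49.5 to 54.1%. Thinned to the size of the smallest sum this held in PLV 1 alone, with 5 UMIs each of Itpr1 and Itpr2 in PLV 2 and 5 against 3 in the mixed library. In the full sums their Itpr3 share ranged from 33.7% in PLV 1 to 3.0% in the mixed library and their Itpr1 share from 16.3% to 47.5%. The order of Itpr1 and Itpr3 in fibroblast-like cells thus differed between libraries. Pericyte-like shares rest on 17, 8 and 24 UMIs.

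**Figure D2:**
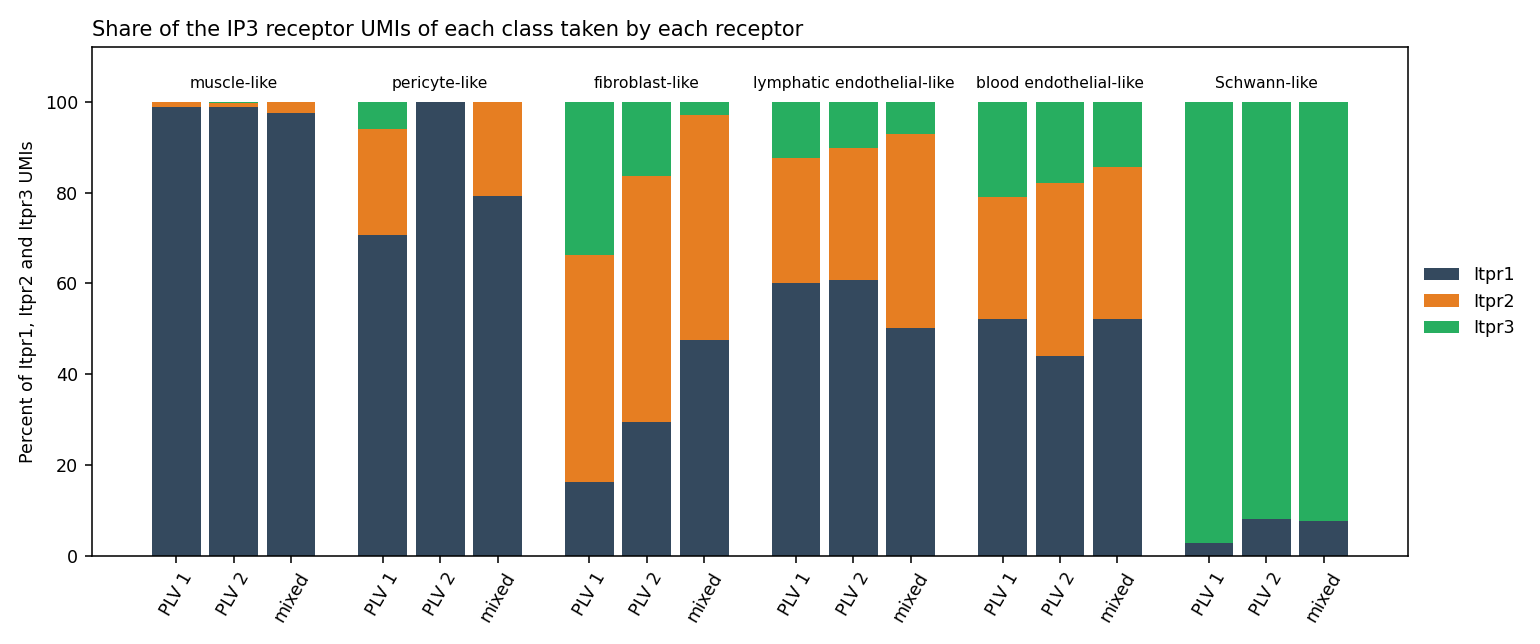
Share of the UMIs of Itpr1, Itpr2 and Itpr3 that each gene gave (percent, stacked to 100), with 1 bar for each class and library. Muscle-like bars are almost wholly Itpr1 (97.5 to 98.9%) and Schwann-like bars almost wholly Itpr3 (91.9 to 97.2%), and the endothelial and fibroblast-like bars hold all 3 genes.

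Ryr2, the ryanodine receptor best known from the heart, was carried by muscle-like cells, at 117, 149 and 62.3 CPM from 243, 119 and 161 UMIs. The muscle-like class gave 89.7%, 100% and 94.7% of all Ryr2 UMIs in the 3 libraries. Pericyte-like cells held 0, 0 and 3 Ryr2 UMIs, and the 4 remaining classes held at most 3 UMIs each in any library. Outside these classes, Ryr2 was found where Ano1 was, in the keratinocyte-like cluster of PLV 1 (21 UMIs, 47.5 CPM) and the immune cluster of the mixed library led by Ccl4, Ccl3 and Il7r (5 UMIs, 80.6 CPM), both of which carried muscle marker RNA. Ryr3, a ryanodine receptor at low levels in many tissues, was sparse, at 9.16, 8.79 and 5.42 CPM in muscle-like cells from 19, 7 and 14 UMIs. Lymphatic endothelial-like cells had 2.19, 10.7 and 2.41 CPM of Ryr3, from 5, 10 and 2 UMIs, which overlapped the muscle-like range. No Ryr3 UMI was found in the pericyte-like, fibroblast-like, blood endothelial-like or Schwann-like cells, which allows up to 5.47, 0.657, 0.80 and 3.99 CPM.

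Muscle-like cells were then compared with each other class within the libraries, with edgeR's quasi-likelihood test on summed UMIs, the library as a block, and Benjamini-Hochberg adjustment over the 10498 genes tested. Ryr3 was too sparse to be tested, so 5 of the 6 genes entered. Itpr3, Ryr2 and, against Schwann-like cells, Ano1 and Itpr2 entered through the side where they were high, with 0 to 3 UMIs on the other. Nothing is therefore read from the counts of members called beside the shares of all genes called. The calls of these genes in those comparisons are not taken as support either. Against pericyte-like cells 2 of 5 were called (13.7% of all genes tested were called in this comparison, 8.08% as higher), both higher in muscle-like cells. Itpr1 was higher by 2.45 log2 units (SE 0.38, adjusted p = 1.18e-04; higher in 3 of 3 libraries). Ryr2 was 17.5-fold higher by summed UMIs (95% counting interval 5.97 to 85.4), with 3 UMIs on the pericyte-like side, all in the mixed library. Neither call held when clusters were cut more coarsely (Leiden resolution 0.5: edgeR adjusted p = 0.206 for Itpr1 and 0.825 for Ryr2, the highest over 13 alternatives). In that cut no cluster of the Sorbs2 kind described below remained in the mixed library and no pericyte-like class was found in PLV 1. Over the 13 alternatives the log2 difference ran from 1.25 to 2.78 for Itpr1 and from 0.515 to 9.95 for Ryr2. Ano1 was lower in muscle-like cells in 3 of 3 libraries, by −1.01 log2 units (SE 0.39), and was not called (edgeR adjusted p = 0.100). Without the mixed library the Ano1 difference was −1.24 and passed it (edgeR adjusted p = 0.00169; range over 13 alternatives 1.21e-04 to 1).

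Against fibroblast-like cells 5 of 5 tested genes were called (39.1% of all genes tested), and against lymphatic endothelial-like cells 5 of 5 (42.6%). Itpr2 was lower in muscle-like cells by −3.56 (SE 0.32, edgeR adjusted p = 3.37e-08) and −3.73 (SE 0.31, 1.00e-08) on the log2 scale. Itpr3 was also lower in muscle-like cells, and no fold is given against its 1 UMI there, which came from PLV 2. Ano1 and Itpr1 were higher in muscle-like than in lymphatic endothelial-like cells, by 5.10 (SE 0.53, edgeR adjusted p = 8.44e-08) and 1.51 (SE 0.29, 1.96e-04). The size of the Ano1 difference rests on PLV 1, which holds all its lymphatic endothelial-like UMIs: without PLV 1 that side is at 0. With the Sorbs2 kind alone as muscle-like the difference was 2.51 (edgeR adjusted p = 0.0124, the highest over 13 alternatives). Ryr2 was 219-fold higher by summed UMIs than in fibroblast-like cells (60.3 to 1812), which held 2 UMIs of it, under the floor of 3. It was 129-fold higher than in lymphatic endothelial-like cells (44.0 to 629), where its 3 UMIs all came from PLV 1. By level, Ano1, Itpr1 and Ryr2 were higher and Itpr2 and Itpr3 lower in muscle-like cells in both comparisons.

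Against blood endothelial-like cells 5 of 5 tested genes were called (40.7% of all genes tested). Ano1 was higher in muscle-like cells by 1.93 (SE 0.40, edgeR adjusted p = 4.85e-04), a call that DESeq2, which called 31.3% of its genes, did not make (adjusted p = 0.0761; range over 13 alternatives 2.29e-14 to 0.477). Itpr1 was higher by 1.07 (SE 0.28, edgeR adjusted p = 0.00453), and without PLV 2 by 0.95 (edgeR adjusted p = 0.107; range over 13 alternatives 2.45e-05 to 0.107). Itpr2 was lower by −4.37 (SE 0.30, edgeR adjusted p = 1.17e-09), and Itpr3 was lower too, with 1 UMI in muscle-like cells. Against Schwann-like cells 5 of 5 were called (34.5% of all genes tested). Itpr1 was higher in muscle-like cells by 5.02 (SE 0.51, edgeR adjusted p = 1.04e-07). Ano1 was higher too, with no fold given against its 1 Schwann-like UMI, from PLV 1. Ryr2 was at least 24.0-fold higher, taking 3 UMIs over the Schwann-like class as the floor. Itpr3 was lower in muscle-like cells, which held 1 UMI of it. Itpr2 was at least 1.24-fold higher in muscle-like cells on the same floor, and its call (edgeR adjusted p = 0.0444) did not hold in DESeq2 (25.9% of genes called), without the block or without any 1 of the libraries (range over 13 alternatives 0.0309 to 0.302).

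The muscle-like clusters fell into kinds set by Hmcn2, Sorbs2 and P2rx1 with Col12a1, genes other than the 6. The kinds were chosen with earlier results of these data known, so the differences between them below are descriptions and not independent tests. The Hmcn2 kind held 144, 56 and 200 cells in PLV 1, PLV 2 and the mixed library, and the Sorbs2 kind 252, 57 and 62. A cluster of 74 cells led by P2rx1 occurred only in the mixed library, and with 1 library it may be that library and not a type. Acta2, smooth muscle actin, was at 12008 to 14501 CPM in the Hmcn2 kind and 12094 to 14797 CPM in the Sorbs2 kind.

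Ano1 separated the kinds. In the Hmcn2 kind its level was 457 CPM in PLV 1, 500.3 CPM in PLV 2 and 296 CPM in the mixed library. In the Sorbs2 kind it was 8.89, 31.6 and 77.7 CPM, from 12, 15 and 34 UMIs. The kinds did not overlap, and the ratio between them was widest in PLV 1 and narrowest in the mixed library. The difference was 3.58 log2 units (SE 0.43, edgeR adjusted p = 9.34e-06; higher in the Hmcn2 kind in 3 of 3 libraries), and it was called in each of the 11 alternatives run, at 2.72 to 4.74. Whether the gap itself differed between the PLV and the mixed libraries was fitted as an interaction added after seeing the data, with the lone mixed library assumed to vary like the others, in which edgeR called Ano1 (1.27% of genes called) and DESeq2 did not (0.00648%). In the comparison of the kinds itself, 3 of the 3 genes that entered were called, where 28.5% of the 7789 genes tested were. After each cell was thinned to 1500 UMIs, 46.3%, 49.0% and 31.7% of cells of the Hmcn2 kind had an Ano1 UMI, against 2.02%, 10.7% and 11.7% of the Sorbs2 kind. Without thinning the shares were 78.5%, 80.4% and 74.0% against 4.37%, 17.5% and 17.7%. Blood endothelial-like cells, thinned the same way, gave 4.91%, 1.72% and 2.21%. As a background, immune cells thinned the same way had an Ano1 UMI in 0 of 159 cells in PLV 1 and 0 of 34 in PLV 2 (Clopper-Pearson upper limits 2.29% and 10.3%), and in 3 of 43 (6.98%) in the mixed library, where 1 immune cluster carried muscle RNA. No order between the Sorbs2 kind and these cells is read from the shares, whose intervals take cells, not libraries, as the unit.

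Pericyte markers did not move as one inside the Sorbs2 kind. Rgs5, a pericyte gene, was at 314, 324 and 779 CPM in the Sorbs2 kind of the 3 libraries, highest in the mixed library, where Ano1 was highest too. Kcnj8, another pericyte gene, was at 16.3, 8.43 and 9.14 CPM from 22, 4 and 4 UMIs, too few to order the libraries. All 9 pericyte markers summed to 1699, 1668 and 2052 CPM there, lower in PLV 2 than in PLV 1, and below the pericyte-like class at 6227 to 12188 CPM. The rise of this sum from PLV 2 to the mixed library was smaller than that of Rgs5 alone, so the other markers together did not rise. The part of pericyte RNA in the Ano1 level of the Sorbs2 kind was not tested.

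Itpr1 and Ryr2 differed between the kinds in the direction opposite to Ano1. Ryr2 was at 66.3, 93.2 and 44.7 CPM in the Hmcn2 kind and at 145, 187 and 117 CPM in the Sorbs2 kind, without overlap. The difference was −1.32 log2 units (SE 0.18, edgeR adjusted p = 3.17e-05; lower in the Hmcn2 kind in 3 of 3 libraries), and it was called in each of the 11 alternatives. Itpr1 was at 298, 370 and 248 CPM in the Hmcn2 kind and at 430, 457 and 283 CPM in the Sorbs2 kind, so it was lower in the Hmcn2 kind within every library although the ranges overlapped between libraries. The Itpr1 difference was −0.49 (SE 0.16, edgeR adjusted p = 0.0283), and it did not hold in DESeq2, which called 11.7% of its genes (adjusted p = 0.126), without the library block (edgeR adjusted p = 0.205), without PLV 1 (−0.34, edgeR adjusted p = 0.348) or without PLV 2 (−0.51, edgeR adjusted p = 0.119). Over the 11 alternatives its adjusted p ran from 7.08e-04 to 0.348.

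Ryr3 was found in 1 of the kinds shared by the libraries. The Hmcn2 kind held no Ryr3 UMI in 144, 56 and 200 cells, and the Sorbs2 kind held 19, 7 and 4, or 14.1, 14.7 and 9.14 CPM. That makes Ryr3 at least 10.5-fold higher in the Sorbs2 kind, taking 3 UMIs over the summed Hmcn2 kind as the floor; the gene did not enter the fit.

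The P2rx1 kind of the mixed library had 58.1 CPM of Ano1 (95% Poisson interval 42.8 to 77.0), 155 CPM of Itpr1 (129 to 184), 61.7 CPM of Ryr2 (46.0 to 81.1) and 12.1 CPM of Ryr3 from 10 UMIs. Its Ano1 was near that of the Sorbs2 kind of the same library (77.7 CPM; 53.8 to 109), and its Itpr1 was the lowest of the 3 kinds there. Its Ryr2 lay between the Hmcn2 kind (44.7 CPM; 34.0 to 57.6) and the Sorbs2 kind (117 CPM; 86.8 to 153). These intervals cover counting error only, and 1 library gives no test.

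**Figure D3:**
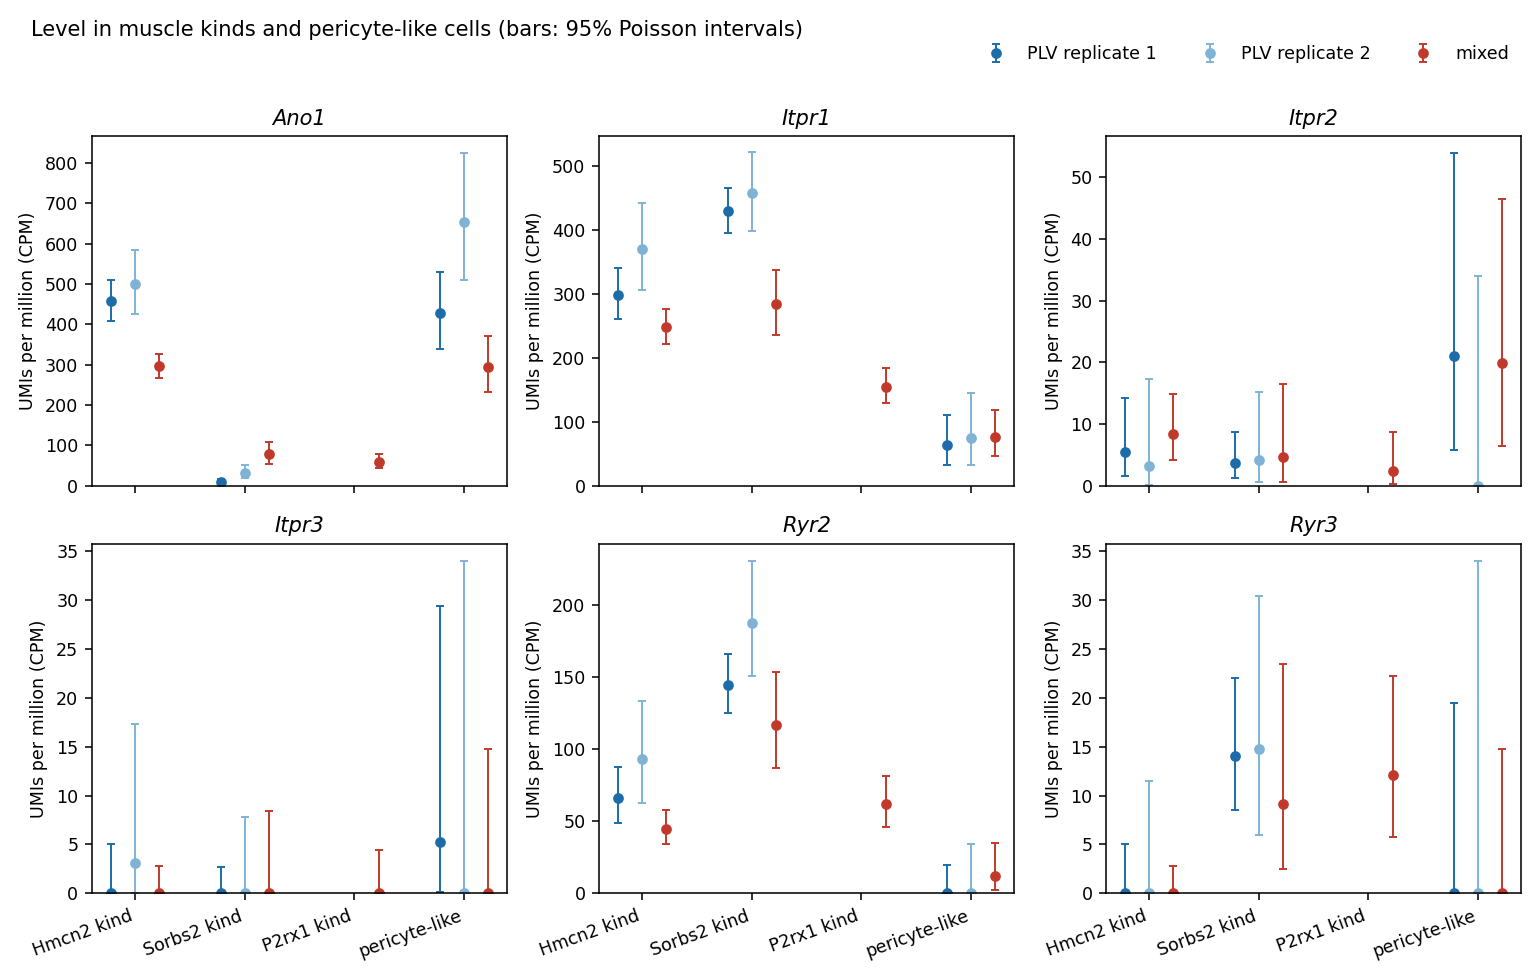
Level of each gene (CPM, linear axis from 0) in the kinds of muscle-like cells and in pericyte-like cells; each point is 1 library with its 95% Poisson interval. Ano1 is high in the Hmcn2 kind (296 to 500.3 CPM) and in pericyte-like cells (295 to 654 CPM), while Ryr2 is highest in the Sorbs2 kind (117 to 187 CPM) and Ryr3 is absent from the UMIs of the Hmcn2 kind.

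The kinds also changed what muscle-like cells looked like against the other classes, in fits added after the data were seen. With the Hmcn2 kind alone, Ano1 differed from pericyte-like cells by 0.0046 log2 units (SE 0.38, edgeR adjusted p = 1), where the SE allows differences of either sign. With the Sorbs2 kind alone it was lower than in pericyte-like cells by −3.55 (SE 0.57, edgeR adjusted p = 1.21e-04). Against blood endothelial-like cells Ano1 was higher by 2.94 in the Hmcn2 kind (SE 0.40, edgeR adjusted p = 2.79e-06) and differed by −0.57 in the Sorbs2 kind (SE 0.59, edgeR adjusted p = 0.477). Itpr1 kept its direction with either kind, at 2.17 (SE 0.35) and 2.71 (SE 0.37) against pericyte-like cells and 0.79 (SE 0.26) and 1.33 (SE 0.28) against blood endothelial-like cells.

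**Figure D4:**
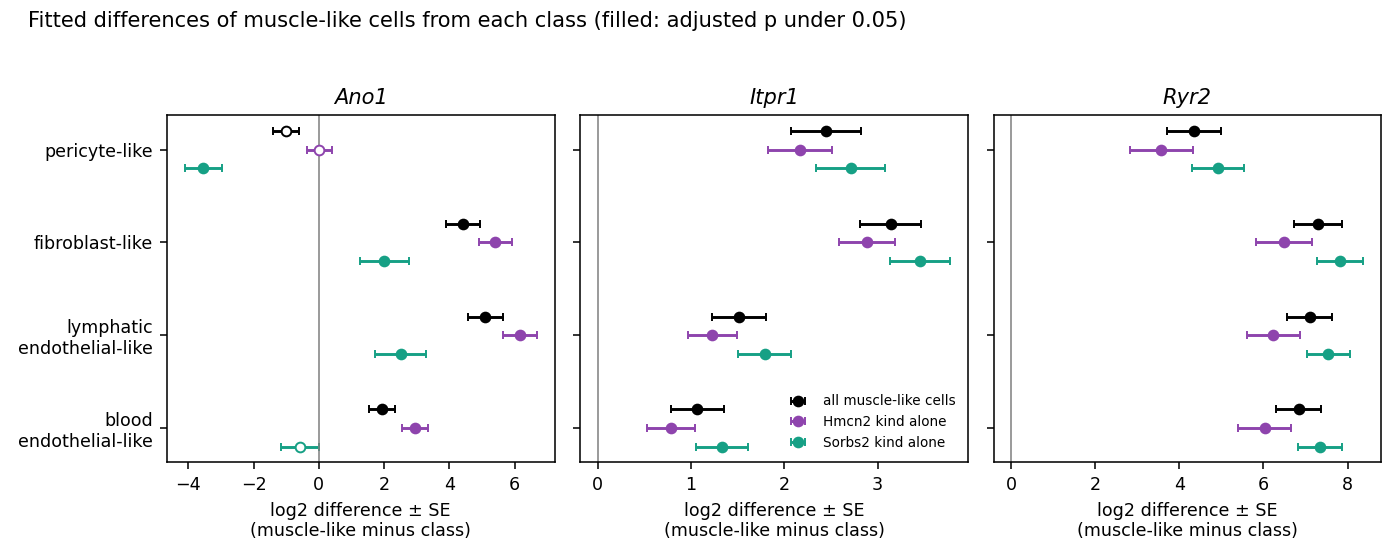
Fitted log2 difference from edgeR (± SE derived from the test's F value) of muscle-like cells from pericyte-like, fibroblast-like, lymphatic endothelial-like and blood endothelial-like cells. Values are for all muscle-like cells, the Hmcn2 kind alone and the Sorbs2 kind alone. Filled points passed an adjusted p of 0.05. Ano1 shifts with the kind (0.0046 and −3.55 against pericyte-like cells), Itpr1 does not change side, and the Ryr2 values rest on at most 3 UMIs in the other class.

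The same cell could carry UMIs of more than 1 of these genes. In the Hmcn2 kind of PLV 1, 136 thinned cells included 63 with Ano1, 39 with Itpr1 and 23 with both. In PLV 2, 49 thinned cells included 24 with Ano1, 18 with Itpr1 and 9 with both. In the mixed library, 189 thinned cells included 60 with Ano1, 65 with Itpr1 and 24 with both. These are counts of cells with UMIs, set against no background share, and say nothing of whether the transcripts occur together more often than apart. In the Sorbs2 kind of PLV 1, 247 thinned cells included 5 with Ano1, 114 with Itpr1 and 1 with both, and 16 had Itpr1 with Ryr2. In PLV 2 the Sorbs2 kind had 6 cells with Ano1, 21 with Itpr1 and 2 with both among 56, and in the mixed library 7, 23 and 1 among 60. At this depth a cell without a UMI may still hold the transcript.

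PLV and mixed libraries were compared over all muscle-like cells, with the lone mixed sum assumed to vary like the PLV sums. Of the 5 genes that entered, 1 was called (16.2% of the 10768 genes tested were). Ryr2 was higher in the PLV sums, at 117 and 149 CPM against 62.3 CPM, by 0.85 log2 units (SE 0.25, edgeR adjusted p = 0.00760). With 1 mixed library and 3 sums in all, this p rests on spread borrowed across genes and cannot tell a difference between the groups from one between libraries. DESeq2, which called 1.9% of its genes, did not call it (adjusted p = 0.576), nor did a fit of the Hmcn2 kind alone (0.49, edgeR adjusted p = 0.429) or of all classes together (0.83, edgeR adjusted p = 0.122); the range over 9 alternatives was 0.00129 to 0.576. The muscle-like sum of the mixed library holds the P2rx1 kind and a smaller share of the Sorbs2 kind (62 of 336 against 252 of 396 and 57 of 113), and the part of this makeup in the difference was not tested. Within each kind Ryr2 was also lower in the mixed library, at 44.7 CPM against 66.3 and 93.2 CPM in the Hmcn2 kind and at 117 CPM against 145 and 187 CPM in the Sorbs2 kind. Itpr1 was at 384 and 422 CPM against 224 CPM, a difference of 0.62 (SE 0.26, edgeR adjusted p = 0.0875). Ano1, at 165 and 221 CPM against 183 CPM, differed by −0.16 (SE 0.24, edgeR adjusted p = 0.718) and by 0.41 within the Hmcn2 kind (edgeR adjusted p = 0.424).

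The other genes of the pathway were taken from 4 lists chosen by function, and their counts stand beside 13.7%, 39.1%, 42.6%, 40.7% and 34.5% of all genes called, in either direction, against pericyte-like, fibroblast-like, lymphatic endothelial-like, blood endothelial-like and Schwann-like cells. Of 16 genes of the calcium-activated chloride channel family and its chloride supply, 5 were tested between classes, and 0, 0, 3, 1 and 1 were higher and 1, 0, 1, 2 and 1 lower in muscle-like cells than in pericyte-like, fibroblast-like, lymphatic endothelial-like, blood endothelial-like and Schwann-like cells. Slc12a2, the cotransporter that loads cells with chloride, was higher in pericyte-like cells (137, 147 and 67.8 CPM) than in muscle-like cells (26.0, 45.2 and 24.0 CPM) (log2 −1.66 for muscle-like minus pericyte-like, SE 0.32, edgeR adjusted p = 0.00113). Between the kinds it was higher in the Hmcn2 kind, at 37.3, 77.7 and 32.6 CPM against 20.0, 23.2 and 18.3 CPM (log2 0.98, SE 0.30, edgeR adjusted p = 0.0199). Slc12a2 thus stood higher where Ano1 did in both comparisons, but Schwann-like cells, nearly without Ano1, had the most of it (361, 346 and 140 CPM). Clca3a1, a secreted protein of the chloride channel accessory family, was at 861, 1051 and 1032 CPM in lymphatic endothelial-like cells and at 3.86, 1.26 and 1.16 CPM in muscle-like cells. Ano10 and Ano6, the latter a lipid scramblase, were found in every class, with Ano6 at 131, 196 and 224 CPM in the Hmcn2 kind and 71.9, 131 and 84.6 CPM in the Sorbs2 kind (log2 0.81, SE 0.19, edgeR adjusted p = 0.00474).

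Of 27 genes of IP3 production and IP3 receptor partners, 22 were tested. Those higher in muscle-like cells numbered 4, 9, 10, 8 and 8, and those lower 1, 2, 6, 5 and 4, in the same order of classes. Their median log2 difference was 0.30 against pericyte-like cells and 0.31 against blood endothelial-like cells, beside medians of 0.07 and 0.03 over all genes tested. Mrvi1 (IRAG), which ties the IP3 receptor to cGMP-dependent kinase, was at 246, 244 and 299 CPM in muscle-like and 227, 166 and 124 CPM in pericyte-like cells. Its difference from pericyte-like cells was not called (log2 0.91, SE 0.33, edgeR adjusted p = 0.0804). Prkg1, that kinase, was at 232, 199.6 and 154 CPM against 127, 138 and 63.8 CPM in pericyte-like cells (log2 1.11, SE 0.26, edgeR adjusted p = 0.00632). Inpp5a, a phosphatase that removes IP3, was at 295, 264 and 128 CPM against 84.3, 147 and 75.8 CPM in pericyte-like cells (log2 1.37, SE 0.27, edgeR adjusted p = 0.00132). Gna14, a G protein subunit upstream of phospholipase C, was called higher against the 4 other classes but not against pericyte-like cells (edgeR adjusted p = 0.172). Ahcyl2 was lower in muscle-like cells (10.6, 20.1 and 13.5 CPM) than in pericyte-like cells (47.4, 101 and 87.8 CPM; log2 −2.25, SE 0.35, edgeR adjusted p = 1.45e-04), and Erlin1, which takes part in the breakdown of IP3 receptors, was called lower against the fibroblast-like and both endothelial classes.

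Between the kinds, 14 of 18 tested genes of this list were called, 5 higher and 9 lower in the Hmcn2 kind, with a median of −0.68 beside −0.0028 over all genes, of which 28.5% were called. Mrvi1 was higher in the Hmcn2 kind (390, 320 and 350 CPM against 168, 192 and 201 CPM; log2 0.79, SE 0.17, edgeR adjusted p = 0.00186). Inpp5a (log2 −0.97, SE 0.16, edgeR adjusted p = 2.72e-04) and Prkg1 (log2 −0.71, SE 0.17, edgeR adjusted p = 0.00491) were lower there. The list therefore moved in both directions, and the receptor partner Mrvi1 went with Ano1 while the IP3 phosphatase Inpp5a went with Itpr1 and Ryr2.

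Of 16 ryanodine receptor partners and junctional proteins, 9 were tested, and 4, 5, 6, 6 and 5 were higher and 1, 2, 3, 2 and 0 lower in muscle-like cells, in the same order of classes. Kcnma1 and Kcnmb1, the subunits of the large-conductance potassium channel that calcium sparks open, were at 85.9, 90.4 and 77.4 CPM and 133, 114 and 70.4 CPM in muscle-like cells and had no UMI in pericyte-like cells. Jph2, which holds the store against the surface membrane, was at 296, 270 and 154 CPM in muscle-like and 89.6, 101 and 31.9 CPM in pericyte-like cells (log2 2.01, SE 0.44, edgeR adjusted p = 0.00406). Sri (sorcin), which dampens ryanodine receptors, was lower in muscle-like cells (62.7, 66.5 and 82.0 CPM) than in pericyte-like cells (232, 194 and 219 CPM; log2 −1.40, SE 0.22, edgeR adjusted p = 1.60e-04). Fkbp1b, which binds Ryr2, had 1, 0 and 2 UMIs in muscle-like cells. Genes of the 4 lists with few or no UMIs in a class, such as Kcnma1, Kcnmb1 and Fkbp1b, entered through the side where they were high. Nothing is therefore read from the counts of list genes called between classes beside the shares of all genes called. Between the kinds 4 of 9 were called (28.5% of all genes), 3 higher and 1 lower in the Hmcn2 kind. The lower gene was Hrc, a calcium-binding protein of the store, at 5.52, 6.22 and 10.6 CPM in the Hmcn2 kind and 79.3, 65.3 and 54.8 CPM in the Sorbs2 kind (log2 −3.12, SE 0.34, edgeR adjusted p = 3.64e-06). Jph2 differed by −0.06 (SE 0.17, edgeR adjusted p = 0.831), so the partners did not all follow Ryr2.

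Of 19 genes of store filling and store-operated entry, 14 were tested, and 4, 7, 9, 8 and 7 were higher and 0, 3, 3, 4 and 3 lower in muscle-like cells, in the same order of classes. Atp2a2, the main calcium pump of the store, was at 887, 899 and 715 CPM against 416, 405 and 235 CPM in pericyte-like cells (log2 1.5, SE 0.18, edgeR adjusted p = 7.88e-06). The pump's level in the Hmcn2 and Sorbs2 kinds differed by −0.02 (SE 0.14, edgeR adjusted p = 0.940). Pln (phospholamban), which restrains that pump, was at 912, 796 and 674 CPM in the Sorbs2 kind and had 1, 0 and 1 UMIs in the Hmcn2 kind. Pln was not found in the P2rx1 kind or in pericyte-like cells. Between the kinds 2 of the 14 were higher and 2 lower, a share near the 28.5% of all genes. Tmem38b, a potassium channel of the store, was lower in the Hmcn2 kind (164, 127 and 106 CPM against 282, 225 and 176 CPM; log2 −0.92, SE 0.17, edgeR adjusted p = 4.87e-04), and Stim2, a store calcium sensor, was higher there (34.5, 31.1 and 31.8 CPM against 11.9, 10.5 and 13.7 CPM; log2 1.29, SE 0.34, edgeR adjusted p = 0.00950). Canx, a chaperone of the store, was lower in muscle-like than in fibroblast-like, blood endothelial-like and Schwann-like cells.

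Likeness of pattern was measured by Pearson's r of log2(CPM + 1) over the 18 sums of 6 classes in 3 libraries, among 11989 genes with at least 50 UMIs; sums of 1 library share depth and handling. Ano1 was most like Des (0.98), Notch3 (0.98) and Rasl11a (0.97), genes of which Des was among the muscle markers and Notch3 among the pericyte markers used for naming. Itpr1 was most like Actn1 (0.95), Pcp4l1 (0.89) and Ccdc88c (0.89), and Itpr2 most like Tmem173 (0.95), Fmo2 (0.95) and Rps24 (0.94). Itpr3 was most like Itga6 (0.96), Lpcat2 (0.94) and Lhfpl2 (0.94), and Ryr2 most like Gm37800 (0.97), Optc (0.96) and Hey2 (0.95). For Ryr3, with 57 UMIs over the sums, the closest genes were Necab1 (0.97), Reep1 (0.89) and Gm6569 (0.86). None of the 6 genes was among the closest 3 of another.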

How the data were processed

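UMI counts per gene and cell barcode were used as the authors deposited them; the file headers name Cell Ranger 6.1.2 for the PLV libraries and version 4 for the mixed library, and the submitters' processing notes name Cell Ranger, Seurat and GRCm38. Whether introns or strand entered the counting is not given in the sources used here. Kept barcodes had 500 or more UMIs, 300 or more genes, and no more than 15% mitochondrial and 20% haemoglobin UMIs, and 10, 3 and 3 predicted doublets (Scrublet) were removed. Each library was clustered alone (scanpy 1.11.5: 2000 variable genes, 50 components, 15 neighbours, Leiden resolution 1) without the 6 genes, the pathway lists, tdTomato, sex or haemoglobin genes. A cluster was called X-like where 3 or more markers exceeded the remaining cells 2-fold, after adding 20 CPM, and its leading 10 genes held no more listed markers of another class than of its own. UMIs were summed per library and class with at least 20 cells, and tested with edgeR 4.0.16 (quasi-likelihood, TMM, filterByExpr, Benjamini-Hochberg at 0.05) in R 4.3.3. The library was a block, since classes compared come from the same libraries. Each SE beside an edgeR value was derived as the log2 difference, without its sign, divided by the square root of the test's F value. DESeq2 1.42.0, other filters, clusterings and omitted libraries were alternatives.

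The genes, lists and kinds of muscle-like cell were chosen with earlier results of these data known. Named pathway genes were, per list, up to 4 with the largest and up to 2 with the smallest mean log2 difference of muscle-like cells from the 5 other classes, among those called at least once. On simulated counts with 200 genes changed 4-fold, 71% were recovered against pericyte-like cells, 88% between kinds and 76.5% between PLV and mixed libraries. False calls made up 6.58%, 2.22% and 4.97% of the calls. The simulated sums shared a common profile without library effects, so they cannot show how the lone mixed library varies. Intervals and floors (3 UMIs) cover counting error only.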

Additional observations from a re-analysis of the deposited data

Results flagged for a closer look

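The Ano1 difference between the Hmcn2 and Sorbs2 kinds was larger, as a ratio, in the PLV libraries than in the mixed library. The mixed side is 1 library, whose spread was not measured and is assumed to be that of the PLV sums, so the SE and p below do not measure it. In edgeR's quasi-likelihood test of the interaction, added after seeing the data, the Hmcn2-minus-Sorbs2 difference was larger by 2.89 on the log2 scale in PLV (SE 0.45, adjusted p = 1.35e-07 over 8686 genes, of which 1.27% were called). DESeq2 gave 2.81 (SE 0.96, unadjusted p = 0.00323) and did not call it (adjusted p = 1.00). Within libraries the levels were 457 against 8.89 CPM in PLV 1, 500.3 against 31.6 CPM in PLV 2 and 296 against 77.7 CPM in the mixed library. The Sorbs2 side rests on 12 UMIs in 11 of 252 cells (PLV 1), 15 in 10 of 57 (PLV 2) and 34 in 11 of 62 (mixed). The share of cells with a UMI in the mixed library, 17.7%, was near that of PLV 2, 17.5%. Rgs5 in the Sorbs2 kind was at 314, 324 and 779 CPM in the same order, and Kcnj8 at 16.3, 8.43 and 9.14 CPM (22, 4 and 4 UMIs). All 9 pericyte markers summed to 1699, 1668 and 2052 CPM, a rise in the mixed library smaller than that of Rgs5 alone. The part of pericyte RNA in the difference was not tested. Itpr1 (−0.34, SE 0.30, edgeR adjusted p = 0.872) and Ryr2 (0.20, SE 0.40, edgeR adjusted p = 0.965) did not pass the interaction test.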

How the results depend on the processing

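Of the log2 differences of the 6 genes under the alternatives, 359 of 384 kept their direction and side of the threshold, 18 lost the call, 4 gained it and 3 reversed. The reversals were Ano1 against pericyte-like cells with the Hmcn2 kind alone (0.0046), Ano1 against blood endothelial-like cells with the Sorbs2 kind alone (−0.57) and Ano1 between PLV and mixed libraries in the Hmcn2 kind alone (0.41); the last was not called in either fit. At Leiden resolution 0.5 the genes called against pericyte-like cells fell to 0 (edgeR) and those called between PLV and mixed libraries rose to 2. The latter count was 0 in DESeq2, in the Hmcn2 kind alone and with all 6 classes fitted together; the cause was not tested. The interaction of kind and library was 2.81 in DESeq2 and not called there. Leaving out 1 library gave 2 to 3 genes called against pericyte-like cells, 4 to 5 against blood endothelial-like cells, 4 to 4 against Schwann-like cells and 2 to 3 between kinds. Without the replicate block, 25 of 27 differences kept direction and call; Itpr1 between kinds (−0.49, edgeR adjusted p = 0.205) and Itpr2 against Schwann-like cells (edgeR adjusted p = 0.0503) lost theirs. PLV against mixed without either PLV replicate was not run, since no residual degrees of freedom remain. Of the levels in CPM, 514 of 522 moved by less than their interval. On thinning, 63 of 108 shares of cells with a UMI and 23 of 54 IP3 receptor shares moved beyond theirs. The small pericyte-like sums (108516 to 250684 UMIs) and Schwann-like sums (121744 to 473064 UMIs) limit values there, and Itpr3 and Ryr3 in muscle-like cells were near the floor.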

Other observations

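Immune clusters of PLV 1 differed in their IP3 receptor UMIs. The macrophage-like cluster of 86 cells had 73.0 CPM of Itpr1, 45.6 CPM of Itpr2 and 12.2 CPM of Itpr3. The T or NK-like cluster of 55 cells had 208 CPM of Itpr2 from 32 UMIs, 58.5 CPM of Itpr3 and 19.5 CPM of Itpr1. The B-like cluster of 48 cells had 218 CPM of Itpr2, 166 CPM of Itpr1 and 135 CPM of Itpr3, from 21, 16 and 13 UMIs. The cluster of 37 cells in the mixed library led by Ccl4, Ccl3 and Il7r had 226 CPM of Itpr1 and no UMI of Itpr2 or Itpr3, and held muscle markers at 17870 CPM. Each value is from 1 library, with no test. Near-empty droplets of the mixed library (under 50 UMIs; 185412 droplets with 1000645 UMIs in all) held 25.0 CPM of Ano1, 53.0 CPM of Itpr1, 22.0 CPM of Itpr2, 7.0 CPM of Itpr3, 14.0 CPM of Ryr2 and 5.00 CPM of Ryr3.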
